A study of Arabidopsis thaliana with 4 samples.

Results

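The genes described here carry carbon from phenylalanine to flavonols, anthocyanins and sinapate esters in Arabidopsis thaliana, together with the transcription factors that switch them on and off. They were chosen by gene identifier from a fixed list of 38, and all 38 were found among the 33602 genes of the deposited expression table. The list was drawn up with earlier results of these data known. The tested seedlings belonged to the line jmj28-3, named as an allele of JMJ28, a gene for a jumonji-domain protein of the histone demethylase type. The seedlings they were set against were wild type (WT), accession Col-0. All were 12 days old, had grown on half-strength MS medium with 1% sucrose at 23 °C in days of 16 h light and 8 h dark, and gave polyadenylated RNA from seedlings. There were 2 libraries of jmj28-3 and 2 of WT. The labels give neither the kind of lesion nor whether the 2 libraries of a genotype came from separate cultures. The p-values therefore measure only the spread between these libraries, which may be technical.

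In plants the general phenylpropanoid pathway turns phenylalanine into activated coumarate, and chalcone synthase then commits part of it to flavonoids. Flavonols such as kaempferol and quercetin glycosides act as sunscreens and are switched on by the related MYB factors MYB11, MYB12 and MYB111, which need no partner. Anthocyanins share the first steps, but their late genes are switched on by a complex of a MYB factor, a bHLH factor and the WD40 protein TTG1. Sinapate esters leave the pathway before chalcone synthase and are the other sunscreens of the Arabidopsis leaf.

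Values are FPKM, an abundance scaled to transcript length and to the mapped fragments of the library, so levels of different genes can be compared per length. Differences were tested as log2(FPKM + 1) with limma, and a gene was called when its Benjamini-Hochberg adjusted p over all tested genes was under 0.05. A gene was tested when its mean FPKM reached 0.5. MYB11 and UGT78D3 stayed below it, which left 36 tested members. Of these 36, 17 were lower in jmj28-3 and 0 were higher. Among all 20232 tested genes 3.79% were called lower and 4.18% higher, 7.97% in either direction, while 47.2% of the tested members were called lower. The median log2 change of the tested members was -0.34, against -0.03 over all tested genes. No member was higher at an unadjusted p under 0.05 in limma either, while 21 were lower at that level. The share of all tested genes at that level was not taken, here or for the smaller lists below. Both jmj28-3 libraries lay below both WT libraries for 24 tested members and above them for 1, where 32.7% and 22.4% of all tested genes did so and 55.2% did not overlap in either direction.

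**Figure D1:**
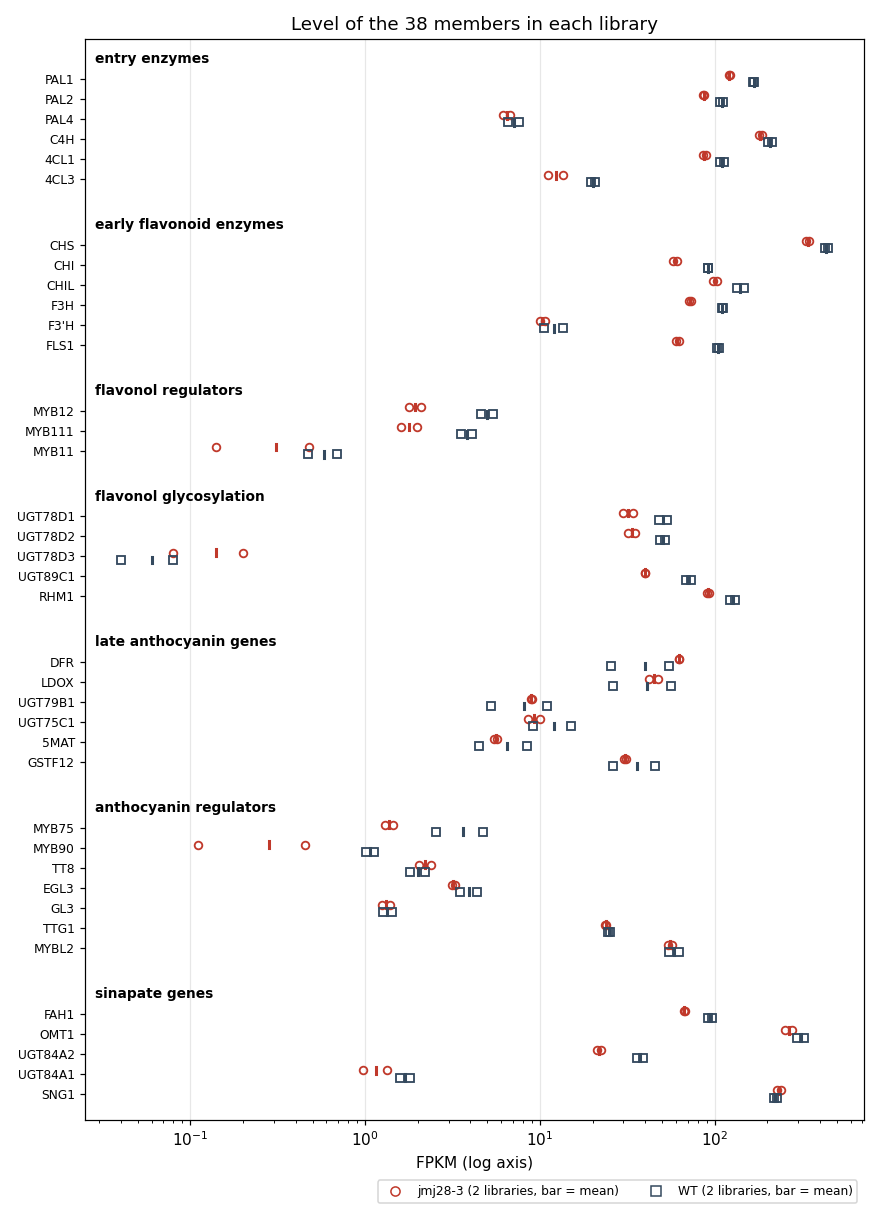
FPKM of each of the 38 members in the 2 jmj28-3 libraries (circles) and the 2 WT libraries (squares), on a log axis, with a bar at each mean and the genes grouped by role. The circles of the early flavonoid, flavonol regulator and flavonol glycosylation genes sit left of the squares, except for F3'H, MYB11 and UGT78D3, while the late anthocyanin genes have squares far apart.

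The libraries resembled each other in size, with summed FPKM from 983897 to 991510. JMJ28 itself had 3.65 and 3.33 FPKM in jmj28-3, against 3.80 and 5.54 FPKM in WT, and was not called (log2 change -0.32, adjusted p = 0.327). Markers of root and of shoot were all present. None of the 10 root markers was called by limma, but 8 of them had both jmj28-3 libraries below both WT libraries, where 32.7% of all tested genes did. At an unadjusted p under 0.05, 6 were lower. Their summed FPKM was 1346 and 1279 in jmj28-3, against 1410 and 1392 in WT. None of the 9 shoot markers was called either, with 1 higher and 1 lower at an unadjusted p under 0.05. The 4 seed coat markers summed to 0.16 to 0.25 FPKM in every library. In whole seedlings, fewer cells of a type and less RNA per cell cannot be told apart, and the part of the root share in the results below was not tested.

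To show what lies upstream of the genes that fell, the 250 bases before the annotated start were searched on both strands for the G-box CACGTG, a light-responsive element, for the MYB-binding AC elements ACCTACC (AC-I), ACCAACC (AC-II) and ACCTAAC (AC-III), and for AACCTA, the core of a MYB recognition element. Of the 17 members called lower, 7 held at least 1 of these motifs. The 6 of them whose window overlapped no other annotated gene are printed here 5′ to 3′ on the strand of the gene, from the TAIR10.1 genome and RefSeq annotation, with matches in capitals. AACCTA can overlap ACCTACC and ACCTAAC.
4CL3 (chr1:24171636-24171885, minus strand): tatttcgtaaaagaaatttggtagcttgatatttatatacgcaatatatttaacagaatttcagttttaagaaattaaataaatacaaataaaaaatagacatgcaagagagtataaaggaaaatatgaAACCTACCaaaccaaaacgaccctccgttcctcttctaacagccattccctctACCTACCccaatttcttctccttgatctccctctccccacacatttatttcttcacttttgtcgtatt
CHS (chr5:4488226-4488475, plus strand): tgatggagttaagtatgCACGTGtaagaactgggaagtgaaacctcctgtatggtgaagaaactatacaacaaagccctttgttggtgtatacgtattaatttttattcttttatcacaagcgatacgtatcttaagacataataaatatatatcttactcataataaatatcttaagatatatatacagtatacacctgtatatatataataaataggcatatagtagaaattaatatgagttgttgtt
CHI (chr3:20431598-20431847, minus strand): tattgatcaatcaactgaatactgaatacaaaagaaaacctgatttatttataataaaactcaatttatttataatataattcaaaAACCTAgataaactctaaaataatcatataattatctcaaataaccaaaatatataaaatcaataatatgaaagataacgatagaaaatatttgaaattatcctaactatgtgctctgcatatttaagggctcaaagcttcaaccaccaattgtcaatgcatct
CHIL (chr5:1563036-1563285, plus strand): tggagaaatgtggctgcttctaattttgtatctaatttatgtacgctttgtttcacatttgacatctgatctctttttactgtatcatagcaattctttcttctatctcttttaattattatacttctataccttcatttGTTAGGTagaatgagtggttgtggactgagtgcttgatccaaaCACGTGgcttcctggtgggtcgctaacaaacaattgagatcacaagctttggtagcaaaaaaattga
MYB12 (chr2:19476076-19476325, plus strand): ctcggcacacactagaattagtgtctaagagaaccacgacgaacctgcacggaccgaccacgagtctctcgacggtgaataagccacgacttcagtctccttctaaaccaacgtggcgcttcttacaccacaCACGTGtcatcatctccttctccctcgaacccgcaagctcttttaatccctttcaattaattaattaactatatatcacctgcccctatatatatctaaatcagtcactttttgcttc
UGT89C1 (chr1:1821895-1822144, minus strand): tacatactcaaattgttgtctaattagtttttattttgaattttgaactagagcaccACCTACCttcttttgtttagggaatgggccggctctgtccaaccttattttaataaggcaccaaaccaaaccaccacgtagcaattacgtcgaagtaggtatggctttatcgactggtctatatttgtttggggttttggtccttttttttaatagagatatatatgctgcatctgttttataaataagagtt

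A G-box occurred in 8 of the 38 member windows, 21.1%, against 6.49% of the windows of 27443 protein-coding genes. It was present in 4 of the 17 members called lower (CHS, CHIL, F3H and MYB12) and in 4 of the 19 tested members not called (PAL4, DFR, UGT79B1 and MYB90). Called and uncalled members thus held it at similar shares, 23.5% and 21.1%. The AC-I element occurred in 2 of the 17 called members and in 0 of the 19 not called, against 1.16% of all windows. It stood 2 times upstream of 4CL3, at positions -120 to -114 and -68 to -62 from the start, and at -193 to -187 upstream of UGT89C1. The untested member UGT78D3 held AC-I too, at -116 to -110. CHIL held AC-III, present in 2.46% of all windows, on the other strand at -110 to -104. AACCTA, present in 11.9% of all windows, occurred in 2 of the 17, 4CL3 and CHI, and in 2 of the 19 not called. AC-II occurred in 0 of the 17 and in 2 of the 19 not called, UGT75C1 and TT8, against 2.69% of all windows. Any AC element occurred in 17.6% of the called and 10.5% of the uncalled members, against 6.12% of all windows. FLS1, MYB111, PAL1, PAL2, UGT78D1 and UGT78D2 held none of these letters in the window. These matches describe sequence and are no measure of binding.

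Most members at the entry to the pathway were lower in jmj28-3, while 0 of 3 tested entry paralogs outside the members was called. Phenylalanine ammonia-lyase, the first enzyme, is encoded by PAL1, PAL2 and PAL4 among the members. PAL1 (AT2G37040, chromosome 2, 15557367 to 15560755 of TAIR10.1, minus strand, 2 exons) had 122.31 and 120.08 FPKM in jmj28-3, against 168.64 and 165.41 FPKM in WT. The groups did not overlap, and PAL1 was 1.38-fold lower (log2 change -0.46, SE 0.0466, adjusted p = 0.00698 in limma). PAL2 had 86.13 and 86.43 FPKM in jmj28-3 and 111.07 and 107.90 FPKM in WT, 1.27-fold lower (adjusted p = 0.0183). PAL4, the scarce one, overlapped between genotypes at 6.18 and 6.78 FPKM in jmj28-3 and 6.60 and 7.62 FPKM in WT. Summed over the 3 genes, PAL transcripts reached 214.62 and 213.29 FPKM in jmj28-3, against 286.31 and 280.93 FPKM in WT. PAL1 held 57.0% and 56.3% of that sum in jmj28-3 and 58.9% in each WT library. PAL3, a paralog outside the members and that sum, had 18.01 and 19.91 FPKM in jmj28-3, above its 17.57 and 13.22 FPKM in WT, and was not called.

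Cinnamate 4-hydroxylase, the P450 that follows PAL and is encoded by C4H alone, had 186.43 and 179.11 FPKM in jmj28-3, against 200.78 and 213.07 FPKM in WT. It did not pass (log2 change -0.18, 95% confidence interval -0.31 to -0.04, adjusted p = 0.116). The 4-coumarate:CoA ligases activate coumarate. 4CL1, the form tied mainly to lignin, had 88.76 and 85.17 FPKM in jmj28-3 and 113.33 and 107.70 FPKM in WT, 1.27-fold lower (adjusted p = 0.0249). 4CL3, the form tied to flavonoids, had 13.54 and 11.12 FPKM in jmj28-3 and 19.49 and 20.69 FPKM in WT, 1.63-fold lower (log2 change -0.67, SE 0.107, adjusted p = 0.0249 in limma). In all, 4 of the 6 entry members were called lower, where 3.79% of all tested genes were. Without jmj28-3 replicate 2 none of these 4 calls was kept (adjusted p from 0.0934 to 0.187). Without any 1 of the other libraries the PAL2, 4CL1 and 4CL3 calls were also lost, and PAL1 stayed called only without WT replicate 2 (adjusted p = 0.0442).

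The early flavonoid enzymes fell together, with 5 of 6 called lower and their summed FPKM at 631.16 and 656.46 in jmj28-3, against 892.07 and 897 in WT. CHS (AT5G13930, chromosome 5, 4488476 to 4490264, plus strand, 2 exons) encodes chalcone synthase, which makes the first flavonoid, and was the most abundant member. It had 334.57 and 346.84 FPKM in jmj28-3, against 426.44 and 445.57 FPKM in WT, 1.28-fold lower (log2 change -0.35, SE 0.0482, adjusted p = 0.0152). CHI, the chalcone isomerase, had 57.49 and 61.14 FPKM in jmj28-3 and 92.05 and 90.97 FPKM in WT. Its partner CHIL, an isomerase-like protein without that activity that helps chalcone synthase, had 97.95 and 102.52 FPKM in jmj28-3 and 146.12 and 133.89 FPKM in WT. In each of these 3 genes the groups stood apart by more than the replicates did, and CHI was 1.54-fold and CHIL 1.40-fold lower (adjusted p = 0.00530 and 0.0140).

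F3H, the flavanone 3-hydroxylase, had 71.21 and 73.18 FPKM in jmj28-3, against 111.08 and 110.44 FPKM in WT, 1.53-fold lower (adjusted p = 0.00400). FLS1 (AT5G08640, chromosome 5, 2803833 to 2805606, plus strand, 4 exons) encodes flavonol synthase, the enzyme that commits dihydroflavonols to flavonols. It had 59.93 and 62.14 FPKM in jmj28-3, against 105.78 and 102.57 FPKM in WT, and was 1.71-fold lower (log2 change -0.76, SE 0.0529, adjusted p = 0.00303). F3'H, the P450 that adds the hydroxyl group of quercetin, overlapped between genotypes, at 10.01 and 10.64 FPKM in jmj28-3 and 10.60 and 13.56 FPKM in WT (adjusted p = 0.403). Without jmj28-3 replicate 2 all 5 calls were lost, FLS1 at an adjusted p of 0.0559, CHI and F3H at 0.0644, CHIL at 0.115 and CHS at 0.121. FLS1 and F3H stayed called without any other library, and CHI without either WT library (adjusted p = 0.0460 and 0.0418), but not without jmj28-3 replicate 1 (adjusted p = 0.05002, just above the threshold). CHS was lost in all 4 leave-outs, and CHIL in all but the one without WT replicate 2 (adjusted p = 0.0420). F3H is overlapped over 1588 bases by the antisense RNA gene AT3G51238, which had 0.71 and 0.84 FPKM in jmj28-3 and 1.32 and 1.16 FPKM in WT. No source used here states whether reads were counted by strand, so reads of such a pair cannot be told apart.

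**Figure D2:**
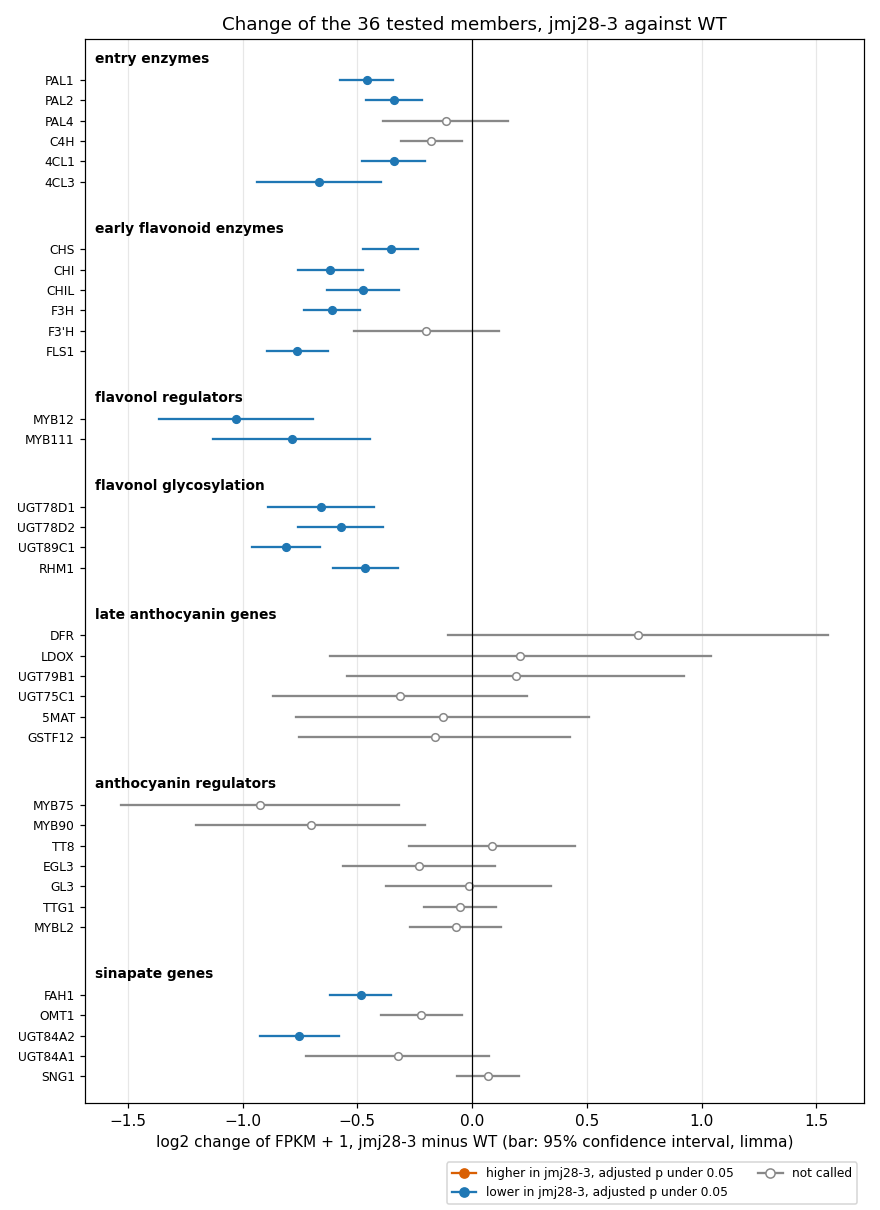
Log2 change of FPKM + 1, jmj28-3 minus WT, with its 95% confidence interval from limma, for the 36 tested members grouped by role. The 17 filled points called lower lie in the entry, early flavonoid, flavonol regulator, flavonol glycosylation and sinapate groups, and the late anthocyanin genes have wide intervals that span 0.

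As ratios of means, the regulators of these early genes showed the largest called falls among the members. MYB12 (AT2G47460, chromosome 2, 19476326 to 19479597, plus strand, 3 exons), best known as the flavonol regulator of the root, had 1.77 and 2.09 FPKM in jmj28-3, against 4.57 and 5.40 FPKM in WT. It was 2.58-fold lower (log2 change -1.03, SE 0.134, adjusted p = 0.0136). MYB111 (AT5G49330, chromosome 5, 19998823 to 20001572, minus strand, 3 exons), best known from the cotyledon, had 1.61 and 1.97 FPKM in jmj28-3, against 3.54 and 4.07 FPKM in WT, 2.13-fold lower (adjusted p = 0.0306). MYB11 was too scarce to test, at 0.48 and 0.14 FPKM in jmj28-3 and 0.47 and 0.69 FPKM in WT, and a gene on the other strand overlaps it over 495 bases. The 3 factors summed to 3.86 and 4.2 FPKM in jmj28-3, against 8.58 and 10.16 FPKM in WT. MYB12 held 45.9% and 49.8% of that sum in jmj28-3 and 53.3% and 53.1% in WT. The calls on MYB12 and MYB111 were lost whichever library was left out, with adjusted p up to 0.1005 for MYB12, without jmj28-3 replicate 2, and up to 0.148 for MYB111, without jmj28-3 replicate 1. These are low values, and the +1 in the log2 scale makes such changes smaller than the ratio of means.

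Each of the 4 tested members that attach or supply sugars to flavonols was also lower. UGT89C1 (AT1G06000, chromosome 1, 1820308 to 1821894, minus strand, 1 exon), the flavonol 7-O-rhamnosyltransferase, had 39.65 and 39.75 FPKM in jmj28-3, against 72.83 and 68.12 FPKM in WT. It was 1.78-fold lower (log2 change -0.81, SE 0.0596, adjusted p = 0.00322), the largest log2 change of the called enzyme genes. UGT78D1, the flavonol 3-O-rhamnosyltransferase, had 34.12 and 29.69 FPKM in jmj28-3 and 48.10 and 53.64 FPKM in WT. UGT78D2, the 3-O-glucosyltransferase that also serves anthocyanins, had 35.14 and 31.87 FPKM in jmj28-3 and 48.70 and 51.88 FPKM in WT. RHM1, which makes the UDP-rhamnose that UGT78D1 and UGT89C1 use, had 90.47 and 92.74 FPKM in jmj28-3 and 131.33 and 122.59 FPKM in WT. These last 3 were 1.59-fold, 1.501-fold and 1.39-fold lower (adjusted p = 0.0171, 0.0133 and 0.0111), and none overlapped between genotypes.

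UGT78D3, an arabinosyltransferase encoded near UGT78D2 on chromosome 5, was nearly silent, from 0.04 to 0.20 FPKM over the 4 libraries. UGT89C1 stayed called in each leave-out except the one without jmj28-3 replicate 2 (adjusted p = 0.0634). RHM1 was called only without WT replicate 2 (adjusted p = 0.0418), and reached 0.109 without jmj28-3 replicate 2. UGT78D1 and UGT78D2 were lost in all 4, reaching 0.133 and 0.117 without jmj28-3 replicate 2. An antisense RNA gene, AT1G06002, covers 1580 bases of UGT89C1 and had at most 0.40 FPKM in any library. RHM1 overlaps TPS1 on the other strand by 99 bases. Beyond the members, a group of 7 other tested genes that decorate flavonols and anthocyanins had 1 called lower, RHM2. UGT73C6, a flavonol glycosyltransferase named after its values were seen, lay the other way with 4.39 and 6.74 FPKM in jmj28-3 and 3.15 and 3.47 FPKM in WT, and was not called (log2 change 0.58, adjusted p = 0.135).

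The late anthocyanin genes gave another picture, since none of the 6 was called by limma and none had an unadjusted p under 0.05. DFR, the dihydroflavonol reductase that draws on the same substrates as FLS1, had 62.36 and 62.37 FPKM in jmj28-3, against 25.34 and 54.96 FPKM in WT. Both jmj28-3 libraries were above both WT libraries, and the log2 change was 0.72 with a 95% confidence interval from -0.11 to 1.55 (adjusted p = 0.260 in limma). LDOX, the anthocyanidin synthase, had 41.96 and 47.37 FPKM in jmj28-3, which lay between the WT values of 26.16 and 56.18 FPKM. UGT79B1, an anthocyanin xylosyltransferase, had 8.97 and 8.86 FPKM in jmj28-3 and 5.28 and 11.03 FPKM in WT. UGT75C1, the 5-O-glucosyltransferase, had 8.51 and 10.05 FPKM in jmj28-3 and 9.15 and 15.00 FPKM in WT. 5MAT, the malonyltransferase, had 5.46 and 5.69 FPKM in jmj28-3 and 4.46 and 8.46 FPKM in WT. GSTF12, the glutathione transferase needed to bring anthocyanins into the vacuole, had 30.28 and 31.19 FPKM in jmj28-3 and 26.29 and 45.31 FPKM in WT.

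In all 6 late genes WT replicate 2 was above WT replicate 1, by 0.66 to 1.09 log2 units, while jmj28-3 replicate 2 differed from jmj28-3 replicate 1 by -0.02 to 0.22. Of all tested genes 1.56% had a WT difference of at least 0.66. That cutoff is the smallest value of the 6 late genes, so all 6 reach it by construction. Among the other 30 tested members the WT difference ran from -0.13 to 0.69, and MYB75 alone was above 0.6. The summed FPKM of the late genes was 157.54 and 165.53 in jmj28-3, against 96.68 and 190.94 in WT. For 5 of the 6 the sign of the change differed between the leave-outs of the WT libraries, and DFR kept its sign. Without WT replicate 1, DFR was at 0.18, LDOX at -0.33 and UGT79B1 at -0.28 log2 units, and none of the 6 was called. Without WT replicate 2, DFR was called higher at 1.27 (adjusted p = 0.0114), LDOX was at 0.75 (adjusted p = 0.0531), and UGT75C1, 5MAT and GSTF12 moved to 0.01, 0.27 and 0.22. UGT75C1 and GSTF12 overlap other genes on the opposite strand, including the phytoene synthase gene PSY, which overlaps GSTF12 by 108 bases at 223.04 and 225.59 FPKM in jmj28-3 and 267.04 and 254.99 FPKM in WT.

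**Figure D3:**
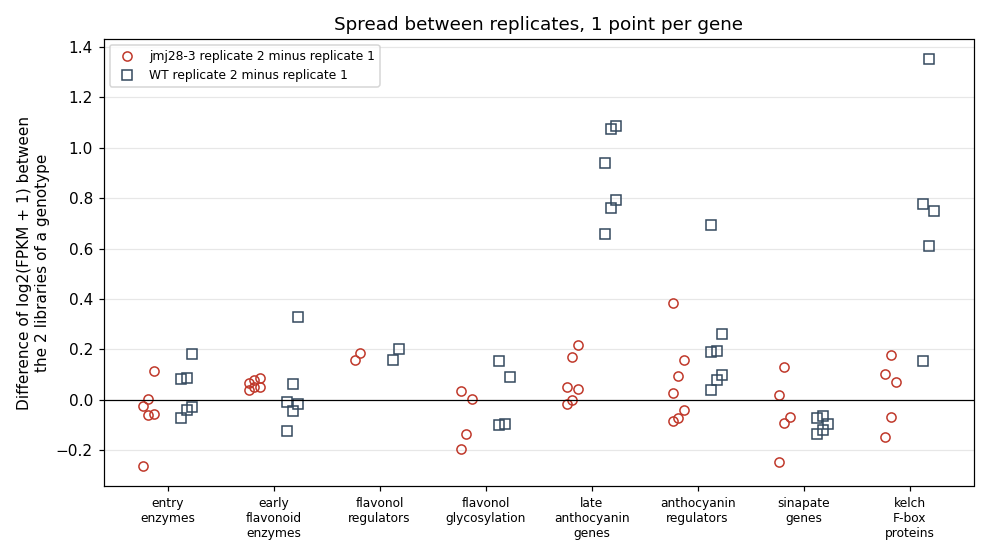
Difference of log2(FPKM + 1) between replicate 2 and replicate 1, within jmj28-3 (circles) and within WT (squares), with 1 point per tested gene, for the members by role and for the 5 kelch F-box genes. The WT squares of the late anthocyanin genes lie from 0.66 to 1.09 and those of 4 kelch F-box genes above 0.6, while the jmj28-3 circles of both groups lie between -0.15 and 0.22.

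FLS1 and DFR compete for dihydroflavonols, so their transcripts were set side by side within each library. The ratio of DFR to FLS1 FPKM was 1.04 and 1.00 in jmj28-3, against 0.240 and 0.536 in WT. The ratio of LDOX to FLS1 was 0.700 and 0.762 in jmj28-3, against 0.247 and 0.548 in WT. Both ratios were higher in both jmj28-3 libraries than in either WT library, by 1.51 and 0.99 log2 units on average. Without WT replicate 1 these differences were 0.93 for DFR and 0.42 for LDOX, and without WT replicate 2 they were 2.09 for DFR and 1.56 for LDOX. An exact two-sided permutation test gave p = 0.333 for each, the smallest p that 2 libraries against 2 can give, so it cannot decide. Both ratios also hold the called FLS1 change of -0.76 log2 units. DFR and LDOX themselves changed by 0.72 and 0.21, and neither was called. The ratio of DFR to LDOX was 1.49 and 1.32 in jmj28-3 and 0.969 and 0.978 in WT, close within each genotype although both genes moved widely between the WT libraries.

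**Figure D4:**
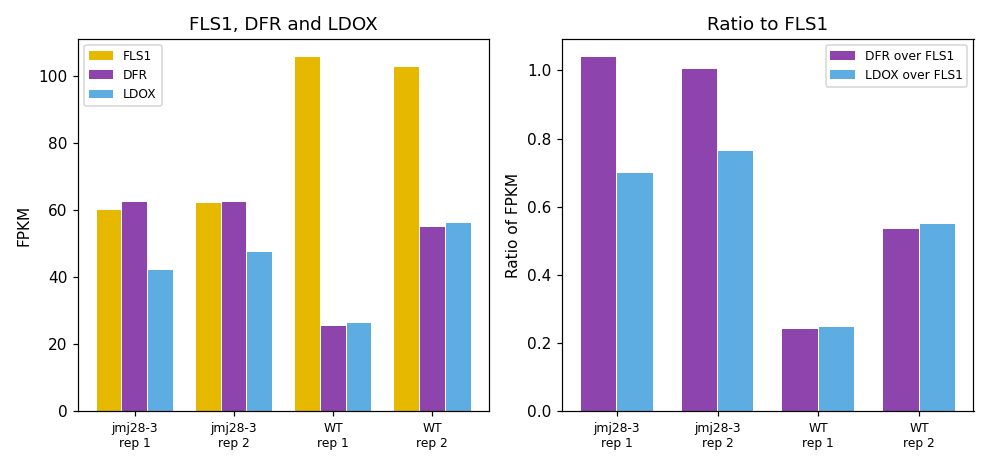
Left, FPKM of FLS1, DFR and LDOX in each library, and right, the FPKM of DFR and of LDOX divided by that of FLS1 in the same library. FLS1 bars are near 60 in jmj28-3 and above 100 in WT, and the DFR to FLS1 ratio is 1.04 and 1.00 in jmj28-3, against 0.240 and 0.536 in WT.

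None of the 7 anthocyanin regulators was called by limma, although 2 were lower at an unadjusted p under 0.05. MYB75 (AT1G56650, also called PAP1, chromosome 1, 21233555 to 21235292, minus strand), the main MYB activator of anthocyanin synthesis in seedlings, had 1.44 and 1.3 FPKM in jmj28-3, against 2.54 and 4.72 FPKM in WT. Its groups did not overlap, and the log2 change was -0.93 (SE 0.242, adjusted p = 0.0845). It passed without WT replicate 1 (log2 change -1.27, adjusted p = 0.0470) and in no other leave-out, and was at -0.58 without WT replicate 2 (adjusted p = 0.166). MYB90, its close relative PAP2, had 0.11 and 0.45 FPKM in jmj28-3 and 1.01 and 1.12 FPKM in WT (log2 change -0.70, adjusted p = 0.102). Part of the MYB90 transcript matches MYB114 at 94.7% identity over 263 bases, so its reads may be shared. The MYB75 and MYB90 values summed to 1.55 and 1.75 FPKM in jmj28-3, against 3.55 and 5.84 FPKM in WT. Of the late anthocyanin genes, which such factors are known to activate, DFR, LDOX and UGT79B1 had log2 changes of 0.72, 0.21 and 0.19. UGT75C1, 5MAT and GSTF12 were at -0.31, -0.13 and -0.16, and none of these genes was called.

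The partners of the MYB factors showed no called difference. TT8, a bHLH factor, had 2.02 and 2.37 FPKM in jmj28-3 and 1.81 and 2.21 FPKM in WT. EGL3 had 3.25 and 3.13 FPKM in jmj28-3 and 3.50 and 4.39 FPKM in WT, and GL3 had 1.24 and 1.39 FPKM in jmj28-3 and 1.26 and 1.42 FPKM in WT. TTG1, the WD40 scaffold of the complex, had 23.59 and 24.03 FPKM in jmj28-3 and 24.38 and 25.06 FPKM in WT, with a log2 change of -0.05 and a 95% confidence interval from -0.21 to 0.11. MYBL2, a MYB repressor of anthocyanin synthesis, was the most abundant regulator among the members, at 57.05 and 54.26 FPKM in jmj28-3 and 54.77 and 62.53 FPKM in WT. The adjusted p of these 5 ran from 0.353 for EGL3 to 0.962 for GL3.

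Of the 5 sinapate members 2 were called lower. UGT84A2 (AT3G21560, chromosome 3, 7595680 to 7597607, plus strand), the sinapate glucosyltransferase, had 22.31 and 21.25 FPKM in jmj28-3, against 38.64 and 36.13 FPKM in WT. It was 1.72-fold lower (log2 change -0.75, SE 0.0687, adjusted p = 0.00534). FAH1, the ferulate 5-hydroxylase on which sinapate depends, had 66.57 and 67.38 FPKM in jmj28-3 and 96.61 and 91.82 FPKM in WT, 1.41-fold lower (adjusted p = 0.00850). OMT1, an O-methyltransferase that acts on both sinapate precursors and quercetin, had 253.16 and 277.31 FPKM in jmj28-3 and 324.02 and 295.18 FPKM in WT, and did not pass (log2 change -0.22, adjusted p = 0.130). UGT84A1, a relative of UGT84A2, had 1.34 and 0.97 FPKM in jmj28-3 and 1.80 and 1.58 FPKM in WT (adjusted p = 0.290). It is overlapped by 69 bases on the other strand by AT4G15475, a gene with 13 and 12.99 FPKM in jmj28-3 and 11.45 and 13.07 FPKM in WT. SNG1, which moves sinapate from glucose to malate at the end of the branch, had 240.57 and 225.92 FPKM in jmj28-3 and 227.28 and 217.48 FPKM in WT (log2 change 0.07, 95% confidence interval -0.07 to 0.20). UGT84A2 stayed called in each leave-out except the one without jmj28-3 replicate 2 (adjusted p = 0.0783). FAH1 was called only without WT replicate 2 (adjusted p = 0.0418), and reached 0.0991 without jmj28-3 replicate 2. Of 10 other tested genes of this branch and its relatives, 1 was called lower (UGT72E2) and 0 higher by limma, with 4 lower and 1 higher at an unadjusted p under 0.05. Both jmj28-3 libraries lay below both WT libraries for 6 of the 10 and above them for 3. Of all tested genes 32.7% and 22.4% did so. REF1, the aldehyde dehydrogenase that makes sinapate and ferulate and that is named after its values were seen, had 83.87 and 83.75 FPKM in jmj28-3 and 88.07 and 85.74 FPKM in WT (log2 change -0.05, adjusted p = 0.589).

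A list of 52 other genes of the pathway, chosen by function but with earlier results of these data known, was set beside these members. Of its 43 tested genes 6 were called lower, 14%, and 5 higher. Over all tested genes 3.79% were called lower and 4.18% higher. The median log2 change of the 43 was -0.14. In the lignin branch 2 of 8 genes were called lower, and 7 of the 8 log2 changes were below 0. CCR1, the cinnamoyl-CoA reductase that opens the branch, had 119.38 and 116.52 FPKM in jmj28-3 and 149.79 and 148.37 FPKM in WT, 1.26-fold lower (adjusted p = 0.0167). CAD4, a cinnamyl alcohol dehydrogenase, had 138.04 and 138.85 FPKM in jmj28-3 and 186.82 and 173.49 FPKM in WT, 1.301-fold lower (adjusted p = 0.0189). RHM2, another UDP-rhamnose synthase, had 22.88 and 23.45 FPKM in jmj28-3 and 31.4 and 29.46 FPKM in WT. UGT72E2, a glucosyltransferase of monolignols, had 33 and 31.72 FPKM in jmj28-3 and 40.63 and 41.77 FPKM in WT. Both stood apart between genotypes and were 1.31-fold and 1.27-fold lower (adjusted p = 0.0312 each). Of the entry paralogs, 4CL5 and PAL3 had log2 changes of -0.24 and 0.30 and neither was called (adjusted p = 0.224 and 0.275). Of 8 proanthocyanidin and seed coat genes only AHA10 and TTG2 could be tested, and neither was called (adjusted p = 0.965 and 0.817). The anthocyanin MYB genes MYB113 and MYB114 were too scarce to test. The calls on CCR1, CAD4, RHM2 and UGT72E2 were lost in each leave-out, reaching adjusted p of 0.153, 0.158, 0.187 and 0.212 without jmj28-3 replicate 2.

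Of 8 tested genes that repress the pathway, 2 were called lower and 2 higher, where 3.79% and 4.18% of all tested genes were. MYB4, a MYB repressor known for acting on C4H and on sinapate ester synthesis, had 13.93 and 13.64 FPKM in jmj28-3, against 27.38 and 28.12 FPKM in WT. It was 2.01-fold lower (log2 change -0.96, SE 0.0662, adjusted p = 0.00303), and its relative MYB7 was 1.60-fold lower (adjusted p = 0.0219), at 8.61 and 7.78 FPKM in jmj28-3 and 12.46 and 13.74 FPKM in WT. MYB32, of the same family and named after its values were seen, had 3.5 and 3.79 FPKM in jmj28-3 and 3.84 and 3.45 FPKM in WT (adjusted p = 0.998). CPC and TRY, also named after their values were seen, had log2 changes of -0.41 and -0.76 and were not called (adjusted p = 0.102 and 0.173). Both jmj28-3 libraries lay below both WT libraries for 4 of the 8 repressors, CPC and TRY among them, and above them for 3. Of all tested genes 32.7% and 22.4% did so. LBD37, LBD38 and LBD39 are nitrate-induced repressors of anthocyanin synthesis. LBD38 had 62.14 and 64.63 FPKM in jmj28-3 and 46.87 and 49.62 FPKM in WT, and LBD39 had 50.61 and 48.02 FPKM in jmj28-3 and 33.87 and 39.22 FPKM in WT. Both were called higher, by 0.39 and 0.43 log2 units (adjusted p = 0.0220 and 0.0440). LBD37, named after its values were seen, had 89.37 and 88.14 FPKM in jmj28-3 and 56.07 and 75.90 FPKM in WT (log2 change 0.44, adjusted p = 0.129). LBD37 was at 0.22 without WT replicate 1 (adjusted p = 0.173), and at 0.65 and called without WT replicate 2 (adjusted p = 0.0276). MYB4 stayed called in each leave-out except the one without jmj28-3 replicate 2 (adjusted p = 0.0587), while MYB7, LBD38 and LBD39 were lost in all 4 (adjusted p = 0.172, 0.179 and 0.214 without jmj28-3 replicate 2).

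On the log2(FPKM + 1) scale, the largest called changes among the members and other genes of the pathway were those of KFB20 and KFB-CHS. By ratio of means MYB12 changed more than KFB-CHS, 2.58-fold lower against 2.03-fold higher. KFB20 and KFB-CHS belong to the kelch F-box genes, whose proteins mark PAL or chalcone synthase for breakdown. All 5 listed had both jmj28-3 libraries above both WT libraries and an unadjusted p under 0.05, and 3 were called higher. Of all tested genes 22.4% lay above in this way and 4.18% were called higher. KFB20 (AT1G80440), which targets PAL, had 134.22 and 144.08 FPKM in jmj28-3, against 31.21 and 53.18 FPKM in WT (log2 change 1.75, SE 0.233, adjusted p = 0.0145). KFB-CHS (AT1G23390), which targets chalcone synthase, had 235.59 and 224.43 FPKM in jmj28-3, against 89.36 and 136.95 FPKM in WT (log2 change 1.05, SE 0.190, adjusted p = 0.0338). KFB01 (AT1G15670) had 21.49 and 24.46 FPKM in jmj28-3 and 12.92 and 14.48 FPKM in WT (log2 change 0.70, adjusted p = 0.0158). KFB39 and KFB50 also target PAL and are named after their values were seen. KFB39 had 22.27 and 19.99 FPKM in jmj28-3 and 3.33 and 10.05 FPKM in WT, and KFB50 had 132.2 and 139 FPKM in jmj28-3 and 66.9 and 115.23 FPKM in WT. Neither was called (log2 change 1.68 and 0.62, adjusted p = 0.0753 and 0.193). KFB39 was called without either WT library, at 1.00 without WT replicate 1 (adjusted p = 0.0378) and 2.35 without WT replicate 2 (adjusted p = 0.0104). KFB50 was at 0.23 without WT replicate 1 (adjusted p = 0.180), and at 1.01 and called without WT replicate 2 (adjusted p = 0.0145). KFB20, KFB39, KFB50 and KFB-CHS were, like the late anthocyanin genes, higher in WT replicate 2 than in WT replicate 1, by 0.75, 1.35, 0.78 and 0.61 log2 units. The calls on KFB20 and KFB-CHS held without either WT library and were lost without either jmj28-3 library (adjusted p up to 0.154 and 0.213). KFB01 was lost in all 4 leave-outs (adjusted p up to 0.145). These genes encode proteins that act on enzymes, and the protein level was not measured.

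**Figure D5:**
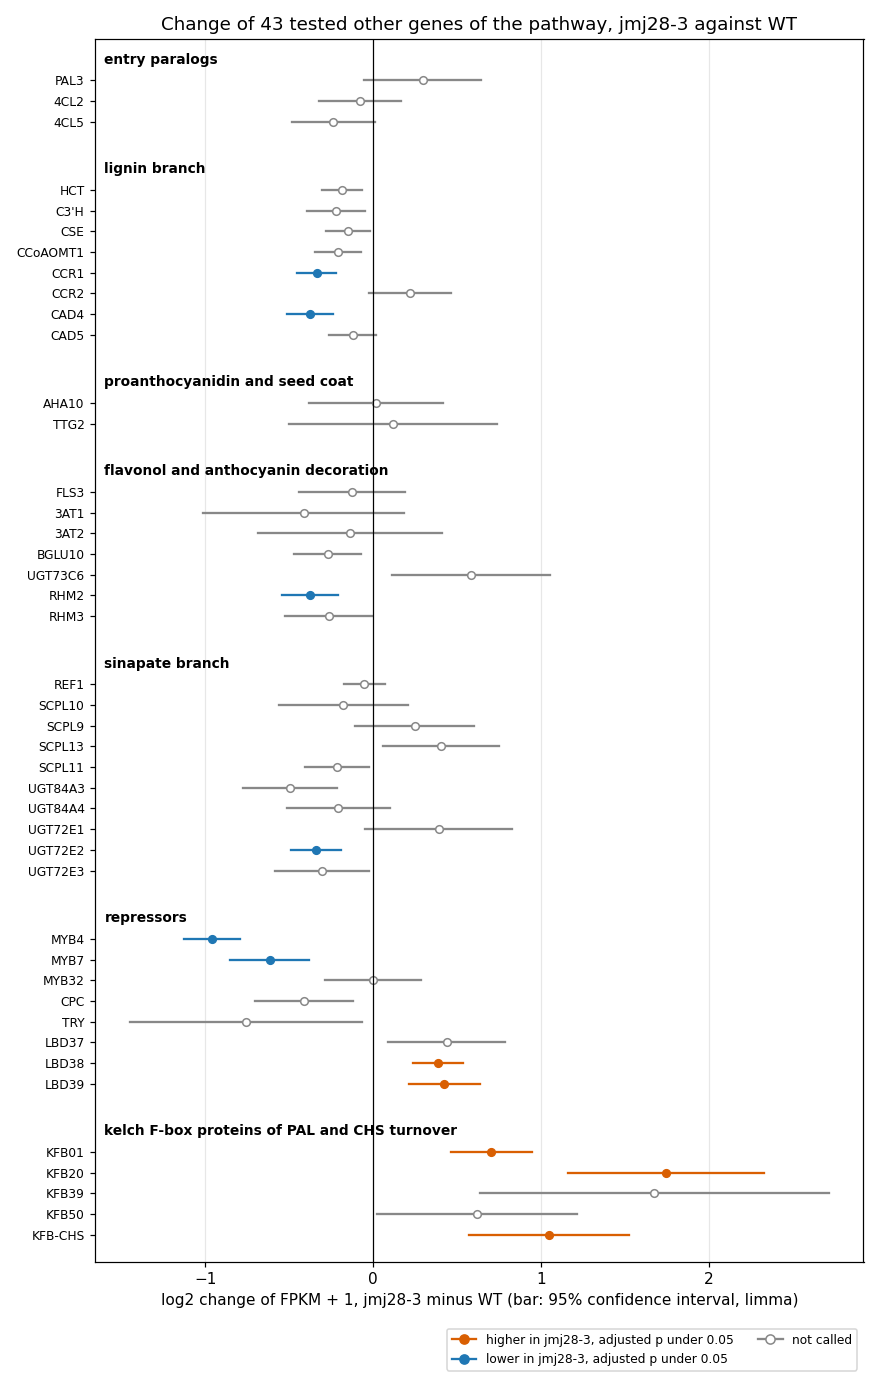
Log2 change of FPKM + 1, jmj28-3 minus WT, with its 95% confidence interval from limma, for the 43 tested other genes of the pathway grouped by role. The 5 genes called higher are LBD38, LBD39, KFB01, KFB20 and KFB-CHS, and the 6 called lower include MYB4 at -0.96 and MYB7 at -0.62.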

How the data were processed

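Polyadenylated RNA of seedlings was measured in 4 libraries, 2 of jmj28-3 and 2 of WT. The authors deposited FPKM with 1 column per library, and column names were paired with the sample descriptions. TopHat, RSEM, edgeR and the build TAIR10 are named, without versions or settings, per the submitters' processing notes. The depth of each library is unknown, and intervals for counting error could not be given.

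FPKM hold no counts, so the 20232 genes with a mean FPKM of at least 0.5 were tested as log2(FPKM + 1), using R 4.3.3 and limma 3.58.1. Genotype was the only term and the prior variance followed a trend with level. Tests were two-sided, with Benjamini-Hochberg adjustment over all tested genes and a threshold of 0.05. The step was run on simulated data with planted changes larger than those of every called member except MYB12, and smaller changes were not simulated. Folds are ratios of mean FPKM, and fold changes on the log2 scale understate those of low genes.

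Alternatives varied the pseudocount, the filter, the scaling, the variance trend, a replicate block and which library was left out. Gene positions and the 250 bases upstream came from RefSeq TAIR10.1, whose nuclear chromosomes are those of TAIR10. BLAST 2.17.0 compared member transcripts with all others, and 3 members (LDOX, UGT79B1 and MYB90) matched another gene at 90% identity or more over at least 100 bases, so their reads may be shared.

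The members and lists were chosen with earlier results of these data known. Any of the 38 members could be named. Of the 52 other genes the called ones were named, or the 2 with the smallest p where a role had none called. Genes outside this rule are marked where they appear.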

Additional observations from a re-analysis of the deposited data

How the results depend on the processing

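The counts of called genes were 846 higher and 767 lower over all genes, 0 higher and 17 lower among the 38 members, and 5 higher and 6 lower among the 52 other genes of the pathway. Leaving out 1 library leaves 1 residual degree of freedom, with the lone library assumed to vary like the other genotype, and gave 70 to 398 higher and 21 to 164 lower over all genes, 0 to 1 higher and 0 to 9 lower among the members, and 0 to 5 higher and 0 to 1 lower among the other genes. Lower calls were fewest without jmj28-3 replicate 2, over all genes as well as among the members. All 17 called members stayed below 0 in all 4 leave-outs, which was fixed in advance because their groups did not overlap. Their log2 change moved by at most 19.7% of its size. Testing every gene above 0 gave 526 higher and 351 lower over all genes, 15 lower among the members (4CL3 and MYB111 were lost) and 2 higher among the other genes. With no variance trend the counts were 469 higher and 287 lower over all genes, 9 lower among the members (PAL2, 4CL1, 4CL3, CHS, CHIL, UGT78D1, UGT78D2 and RHM1 were lost), and 1 higher and 2 lower among the other genes.

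The labels do not say that replicate numbers pair the libraries. The replicate block gave 534 higher and 328 lower over all genes, 12 lower among the members (PAL2, 4CL1, 4CL3, CHS and MYB111 were lost), and 3 higher and 1 lower among the other genes. Deviations of same-numbered libraries correlated at -0.13 across genes, and a crossed replicate block, added after seeing the data, gave 1158 higher and 1129 lower over all genes, 19 lower among the members, and 8 higher and 9 lower among the other genes.

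CHI, F3H, FAH1, FLS1, MYB12, PAL1, UGT84A2 and UGT89C1 were called under each of the 9 alternatives other than the leave-outs and the crossed replicate block. Called members kept their direction under those 9 and in the 4 leave-outs. In the leave-outs the lack of overlap between groups fixed it. The filter, the variance trend and the replicate block do not alter a log2 change, so they could not reverse it either. For the crossed replicate block only counts were taken. Among members not called, 8 changed sign in the leave-outs, with the lowest value without WT replicate 1 and the highest without WT replicate 2. The log2 change then ran over -0.33 to 0.75 for LDOX, -0.28 to 0.66 for UGT79B1, -0.64 to 0.014 for UGT75C1, -0.53 to 0.27 for 5MAT, -0.55 to 0.22 for GSTF12, -0.0089 to 0.18 for TT8, -0.065 to 0.034 for GL3 and -0.17 to 0.022 for MYBL2. GL3 was also at 0.031 without jmj28-3 replicate 1, at 0.0042 with median-of-ratios scaling and at 0.065 with quantile normalization. The cause was not tested. The unknown depth limits what can be said of genes under 1 FPKM.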
